A study of Mus musculus with 12 samples.

Results

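The kainate receptor genes Grik1, Grik2, Grik3, Grik4 and Grik5 and the delta receptor gene Grid1 were followed by name in single nuclei of the embryonic mouse cortex. They are 6 of 23513 genes in the count tables, and all 6 had UMIs in every embryo. The study asked how prenatal exposure to EtOH changes gene expression in each cell type of the developing cortex. Pregnant C57BL/6J dams were injected intraperitoneally each day, from embryonic day 8.5 until the day before collection, with saline or with ethanol at 2.5 g/kg as a 25% (v/v) solution in saline. Cortices were collected at embryonic day 14 as given in the labels, nuclei were isolated, and each embryo gave 1 droplet-based 3′ library. Batch 1 held saline embryos S1-1 and S1-2 of dam S1 and EtOH embryos E1-1 and E1-2 of dam E1. Batch 2 held saline embryos S2-1, S2-2 and S2-4 of dam S2 and EtOH embryos E2-1 to E2-4 of dam E2, so that 5 saline and 6 EtOH embryos were compared. With 2 dams per treatment, littermates share a dam, and p-values over embryos measure the spread between embryos rather than between dams.

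Kainate receptors are tetrameric cation channels opened by glutamate. GluK1, GluK2 and GluK3, encoded by Grik1, Grik2 and Grik3, form channels on their own or together, whereas GluK4 and GluK5, encoded by Grik4 and Grik5, bind the agonists with high affinity and reach the surface as partners of the first 3. In the embryonic forebrain kainate receptors are known for effects on neuronal migration, neurite growth and early network activity, beside their later roles at synapses. GluD1, encoded by Grid1, shares the family's architecture but is not opened by glutamate, and it works as a synaptic organizer that binds cerebellins, which in turn bind neurexins.

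The letters that set the ion permeability of these channels lie in the pore loop, where the codon known as the Q/R site is a target of A-to-I editing by ADAR enzymes in Grik1 and Grik2. The stretch around this codon is shown because it is where the subunits that can be edited and those that are not known to be edited can be compared. The sequences are the coding strand of GENCODE M21 transcripts on GRCm38, 39 bases each, with the aligned codon in capitals.
Grik1: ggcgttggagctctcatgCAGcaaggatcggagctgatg
Grik2: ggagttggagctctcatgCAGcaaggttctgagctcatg
Grik3: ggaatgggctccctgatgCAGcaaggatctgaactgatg
Grik4: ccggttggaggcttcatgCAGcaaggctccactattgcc
Grik5: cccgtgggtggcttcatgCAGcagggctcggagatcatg
Grid1: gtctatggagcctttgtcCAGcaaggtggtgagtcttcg
All 6 genes carry the unedited codon CAG in the genome at the aligned position. Grik1 and Grik2 shared 35 of 39 bases, Grik4 and Grik5 shared 27, and Grid1 shared between 19 and 23 with the Grik genes. The codon lies in exon 12 of 17 of Grik1 (chr16:87940542-87940544, minus strand) and in exon 13 of 17 of Grik2 (chr10:49244329-49244331, minus strand). UMI tables count transcripts and carry no bases, so editing was not measured here. The genes themselves span 394 kb (Grik1, chr16:87895900-88290265), 694 kb (Grik2, chr10:49094833-49788766), 223 kb (Grik3, chr4:125490700-125714173), 426 kb (Grik4, chr9:42518135-42944493), 62.5 kb (Grik5, chr7:25009849-25072346) and 763 kb (Grid1, chr14:34820108-35583379). None of them overlaps a gene on the other strand that is in the count tables.

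The tables held 50550 nuclei in 25 clusters, with 14078316 to 38034349 UMIs per EtOH embryo and 44017566 to 83061737 per saline embryo. The median UMIs per nucleus lay between 4072 (E1-1) and 6911 in EtOH embryos and between 6325 (S2-4) and 9051 in saline embryos, and 314 barcodes occurred in more than 1 library. Saline embryo S2-4 thus lay within the range of the EtOH embryos in depth per nucleus, and members that edgeR called without it but not with it are named with their values. Of the cell class markers, Hes1 and Eomes were highest in the 5 RGC and the 2 IPC clusters. Neurod2 placed 6 of the 8 PN clusters among its 8 highest, and Gad2 placed 6 of the 7 interneuron clusters among its 7 highest. PN Cluster 25 had the lowest Neurod2 of the PN clusters, 80.2 CPM, and Cluster 19 is named unknown by the authors. Cluster 11, named striatal interneurons by the authors, was the highest cluster in Ebf1 (12463 CPM), Isl1 (277 CPM) and Bcl11b (1907 CPM). It had 1172 CPM of Gad2. Whether its nuclei are interneurons was not tested, and they are called striatal neurons here.

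Across the cortex the members followed different cells. Levels are given as CPM, the UMIs of a gene summed per embryo and cluster and scaled to a common library total, as the mean over embryos with at least 10 nuclei, and carry no test, since the clusters were made from the expression of these nuclei. Grik1 was highest in PN Cluster 25 and in some of the interneuron clusters, Grik3 in some interneuron and some PN clusters, Grik4 in Clusters 19 and 14 and Grid1 in Clusters 19 and 11. Grik2 was high in clusters of every class, and Grik5 varied little.

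**Figure D1:**
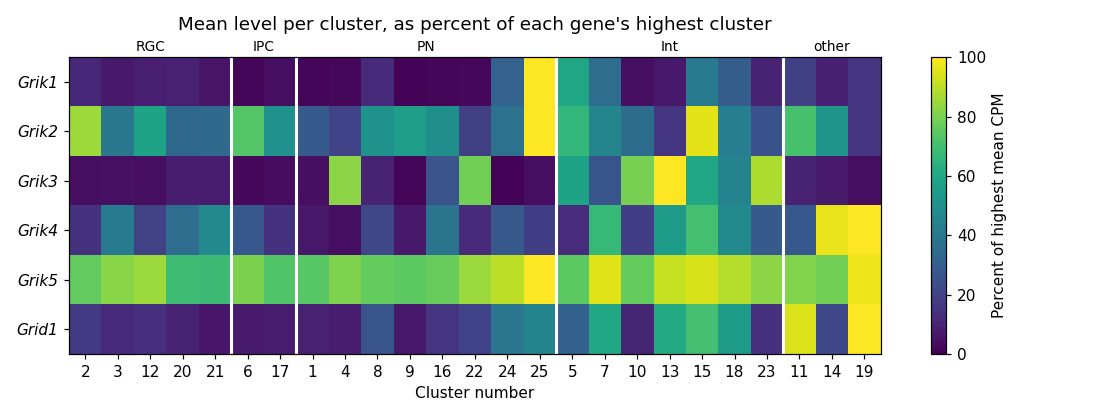
Mean CPM of each member in each of the 25 clusters, drawn as a percent of that gene's own highest cluster, with clusters grouped by class (Int, interneurons). Grik5 stays near its highest level throughout, whereas Grik1 and Grik3 are near 0 in many RGC, IPC and PN clusters.

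Grik1 (GluK1) ranged from 17.8 ± 16.9 CPM (SD, n = 11 embryos) in early PN of Cluster 9 to 1705 ± 419 CPM (SD, n = 7) in PN Cluster 25. Migrating interneurons of Cluster 5 followed with 1010 ± 251 CPM (SD, n = 11), and the interneuron Clusters 15 and 7 with 710 ± 182 and 611 ± 159 CPM (SD, n = 11 for both). In 6 of the 7 embryos in which both could be measured, Cluster 25 was higher than Cluster 5. Only this step in the order of the 25 clusters was larger than 1 SD of the difference within embryos, and the other 23 neighbouring pairs could not be ordered beyond their spread. The interneuron Clusters 23, 13 and 10 had 166, 120 and 70.6 CPM, none above the highest of the 5 RGC clusters, which lay between 87.0 and 187 CPM, and callosal PN of Cluster 1 and subcortical PN of Cluster 16 were at 23.1 and 21.2 CPM.

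Grik2 (GluK2), the member known as the core subunit of most forebrain kainate receptors, was highest in PN Cluster 25 with 4999 ± 1050 CPM (SD, n = 7) and in interneuron Cluster 15 with 4784 ± 732 CPM (SD, n = 11). The mitotic RGC 1 of Cluster 2 had 4258 ± 604 CPM and the non-mitotic IPCs of Cluster 6 had 3659 ± 726 CPM (SD, n = 11 for both). Progenitors and neurons thus overlapped in their Grik2 levels. At the low end, Cluster 19 had 769 ± 259 CPM, interneuron Cluster 13 had 795 ± 234 CPM and callosal PN of Cluster 22 had 940 ± 142 CPM (SD, n = 11 for each). The highest cluster exceeded the lowest by 6.50 times, and 11 clusters lay above 50% of the highest level. Of the 24 steps between neighbours in this order, 1 was larger than 1 SD of the difference.

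Grik3 (GluK3), whose channels need high concentrations of glutamate to open, split both the PN and the interneurons. It was at 1072 ± 121 CPM in interneuron Cluster 13 (SD, n = 11), 940 ± 134 CPM in migrating interneurons of Cluster 23 (SD, n = 10), 887 ± 73.8 CPM in rostral subcortical PN of Cluster 4 and 844 ± 97.3 CPM in callosal PN of Cluster 22 (SD, n = 11 for both). Callosal PN of Cluster 1, which bear the same name, had 43.5 ± 8.5 CPM (SD, n = 11). The 7 interneuron clusters lay between 277 and 1072 CPM, and the 5 RGC clusters between 38.2 and 85.4 CPM. Of the 24 steps in the order, 6 exceeded 1 SD of the difference, among them the step from caudal subcortical PN of Cluster 16 to striatal neurons of Cluster 11, which held in 11 of 11 embryos. The lowest level, 12.4 CPM, was that of PN Cluster 24.

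Grik4 (GluK4) had its highest levels in Cluster 19, 184 ± 41.1 CPM, and in the Layer I neurons of Cluster 14, 178 ± 26.0 CPM (SD, n = 11 for both), which could not be ordered, as Cluster 19 was higher in 6 of 11 embryos. With every nucleus thinned to 2000 UMIs, Cluster 14 was the higher, with 171 CPM against 156 CPM in Cluster 19. The interneuron Clusters 15, 7 and 13 followed with 129, 123 and 102 CPM. In rostral subcortical PN of Cluster 4 the level was 6.78 ± 3.13 CPM (SD, n = 11), the lowest of the 25 clusters.

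Grik5 (GluK5), the other high-affinity partner subunit, varied least. Its 25 cluster means lay between 113 CPM in cortical hem RGC of Cluster 21 and 165 CPM in Cluster 25, a ratio of 1.46. Of 4333 genes with at least 20 CPM in every cluster, 141 (3.25%) had a ratio of highest to lowest cluster that was no larger, and the median ratio was 2.38. None of the 24 steps between neighbours exceeded 1 SD of the difference.

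Grid1 (GluD1) was highest in Cluster 19 with 1084 ± 200 CPM and in striatal neurons of Cluster 11 with 1027 ± 102 CPM (SD, n = 11 for both), which could not be ordered. Interneuron Cluster 15 had 758 ± 115 CPM, and the step from Cluster 11 to Cluster 15 was larger than its spread, in 10 of 11 embryos. The interneuron Clusters 13, 7 and 18 had 663, 644 and 590 CPM, whereas Cluster 23 had 155 CPM and late interneuron precursors of Cluster 10 had 114 CPM. The lowest levels, 64.4, 71.1 and 79.8 CPM, were those of Clusters 21, 9 and 6.

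**Figure D2:**
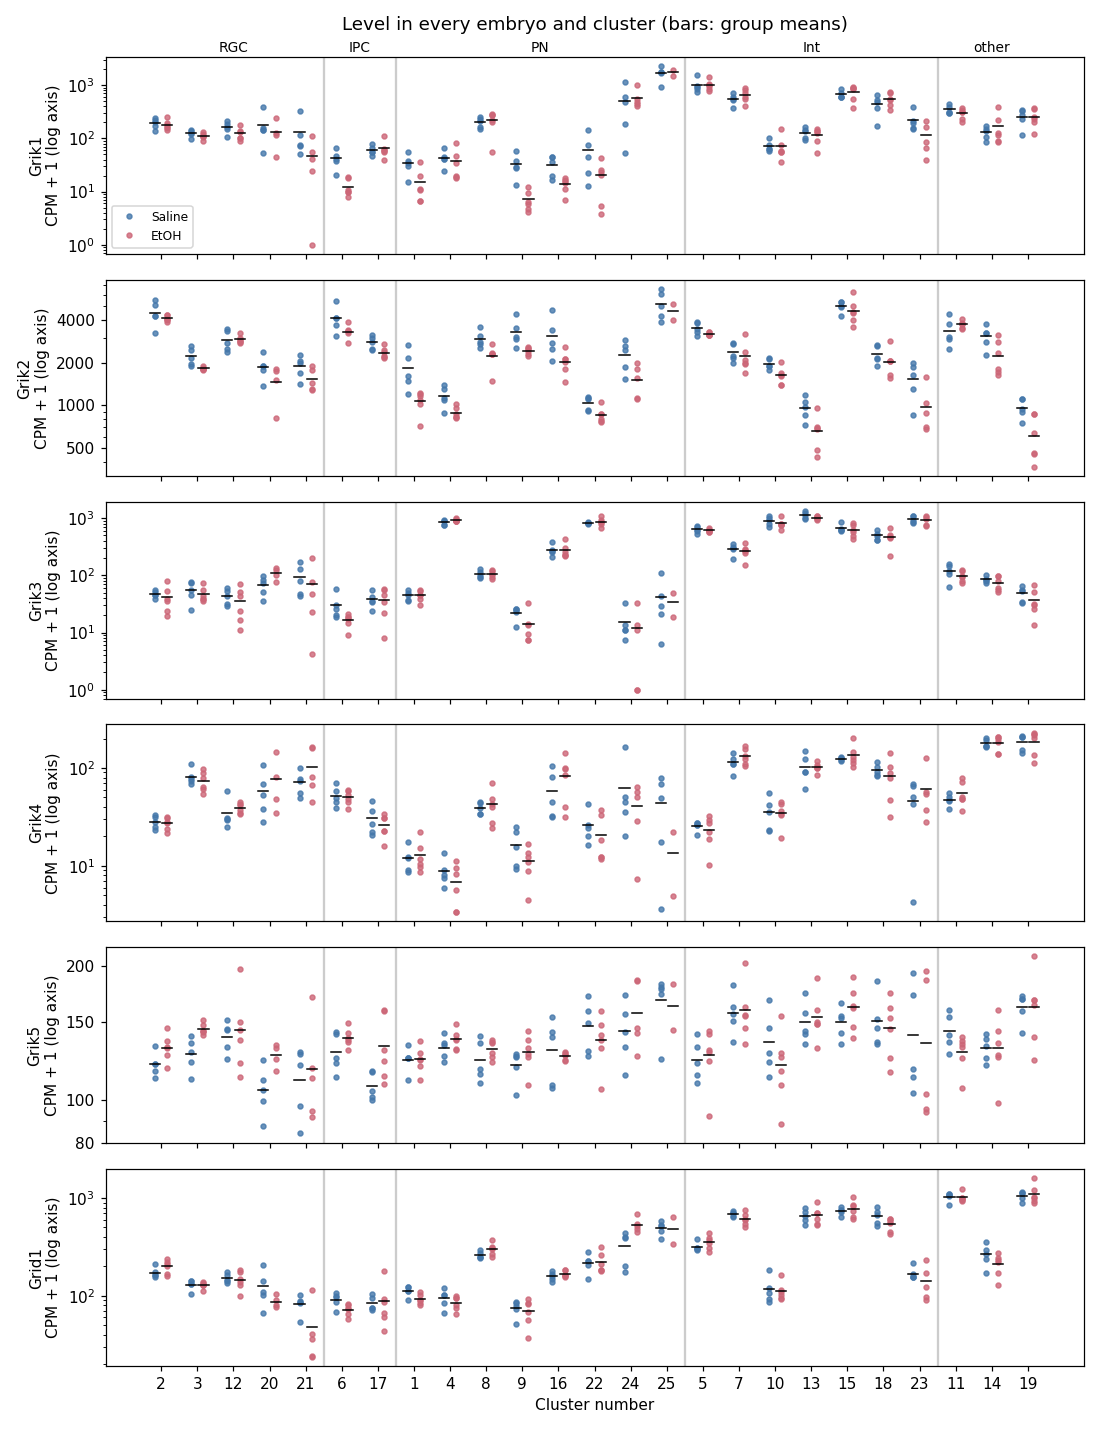
Level of each member in every embryo (points) and cluster on a log axis of CPM + 1, with saline in blue, EtOH in red and black bars for group means; embryos with fewer than 10 nuclei in a cluster are left out. The points of the 2 treatments overlap in nearly every cluster, and the Grik2 points of EtOH embryos lie low in most of them.

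The share of nuclei with at least 1 UMI is reported at a common depth of 2000 UMIs per nucleus, with 177 saline and 210 EtOH nuclei below that depth left out. Grik2 was found in 100% of nuclei in Cluster 25 and in 98.6 ± 0.711% (SD, n = 11 embryos) in Cluster 2, but in 56.4 ± 13.7% in Cluster 13. Grik3 was found in 82.6 ± 3.45% of nuclei in Cluster 13 and 72.8 ± 4.85% in Cluster 4. Without thinning, these shares were 100%, 99.8% and 79.6% for Grik2 and 96.5% and 92.3% for Grik3.

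Free RNA can place UMIs in nuclei that do not express a gene. No cell type known to lack Grik1 was at hand, so no background level could be set. Over both treatments, Grik1 was found in 3.58 ± 2.88% of the nuclei of Cluster 9 at 2000 UMIs, with a median depth of 5566 UMIs before thinning. Clusters 1, 4 and 16 had 3.98%, 4.45% and 4.07%, and Cluster 6 had 4.88%, at median depths from 5494 to 9352 UMIs. By treatment, Cluster 9 had 5.66 ± 3.17% in the 5 saline embryos and 1.85 ± 0.830% in the 6 EtOH embryos (SD for both), so that a single share for a cluster covers both. Whether these low shares are expression or free RNA cannot be told apart. Cluster 25, at a median of 19112 UMIs, had 81.9 ± 9.01% (SD over embryos), and Cluster 5 had 41.2 ± 7.43%.

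UMIs of Grik1 and Grik3 were counted in the same nuclei, where doublets were not called. In migrating interneurons of Cluster 5, at 2000 UMIs, 39.2% of the 3776 pooled nuclei had a UMI of Grik1, 65.6% had one of Grik3 and 26.0% had both. In Cluster 25, 83.9% had Grik1, 5.65% had Grik3 and 4.03% had both, over 124 nuclei. In Cluster 13 the shares were 13%, 82.5% and 10.9% over 1298 nuclei, in Cluster 18 they were 24.4%, 44.5% and 7.36% over 965 nuclei, and in Cluster 7 they were 30.0%, 32.9% and 8.30% over 3519 nuclei.

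Genes with the most similar pattern over the 25 clusters were looked up among 9250 genes with at least 20 CPM in a cluster, by Pearson's r of log2(mean CPM + 1). For Grid1 these were Tmeff2 (r = 0.92), Vstm5 (r = 0.92) and Trank1 (r = 0.91), and for Grik1 they were Nell1 (r = 0.85), Mid2 (r = 0.83) and Syndig1 (r = 0.81). Grik5 was most like Epha10, Slc12a5 and Nwd2 (r = 0.83 for each), and Grik4 most like Tbc1d19 (r = 0.81), Pld5 and Gm48749 (r = 0.79 for both). For Grik3 they were Grip1os1 (r = 0.77), Vldlr (r = 0.75) and Runx1t1 (r = 0.74). Grik2 had no close match, with Pcdh17 (r = 0.57), Erp29 (r = 0.56) and Washc3 (r = 0.54) at the top. Within the family, Grid1 and Grik5 (r = 0.75) and Grid1 and Grik1 (r = 0.73) were the most alike, and Grik2 and Grik3 the least (r = -0.34). The 25 points come from the same libraries and share their depth.

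After EtOH treatment, Grik2 was lower in PN, and within PN in early PN of Cluster 9. Grik1 was called lower in Cluster 9 as well, at a low level of 2 to 12 UMIs per EtOH embryo, which was not told apart from free RNA. Counts were tested with edgeR's quasi-likelihood test with Benjamini-Hochberg adjustment over all genes of a fit, and a gene was called at an adjusted p under 0.05 with a fold above 1.25 or below 0.8. Of the 148 pairs of a member and a cluster that could be tested, 2 were called, both lower after EtOH, against 0.792% of all gene and cluster pairs. At an unadjusted p under 0.05, 33 pairs stood, 30 of them lower and 3 higher, and over all genes 17.4% of pairs reached that level. In the 4 class fits, 1 of 24 pairs was called, against 4.32% of all gene and class pairs. Both counts are small, and in the classes the share called is near the background. Without saline embryo S2-4, 17 of 149 member and cluster pairs and 4 of 24 member and class pairs were called, against 8.78% and 18% of all pairs in those fits, so the share called rose over all genes as well.

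**Figure D3:**
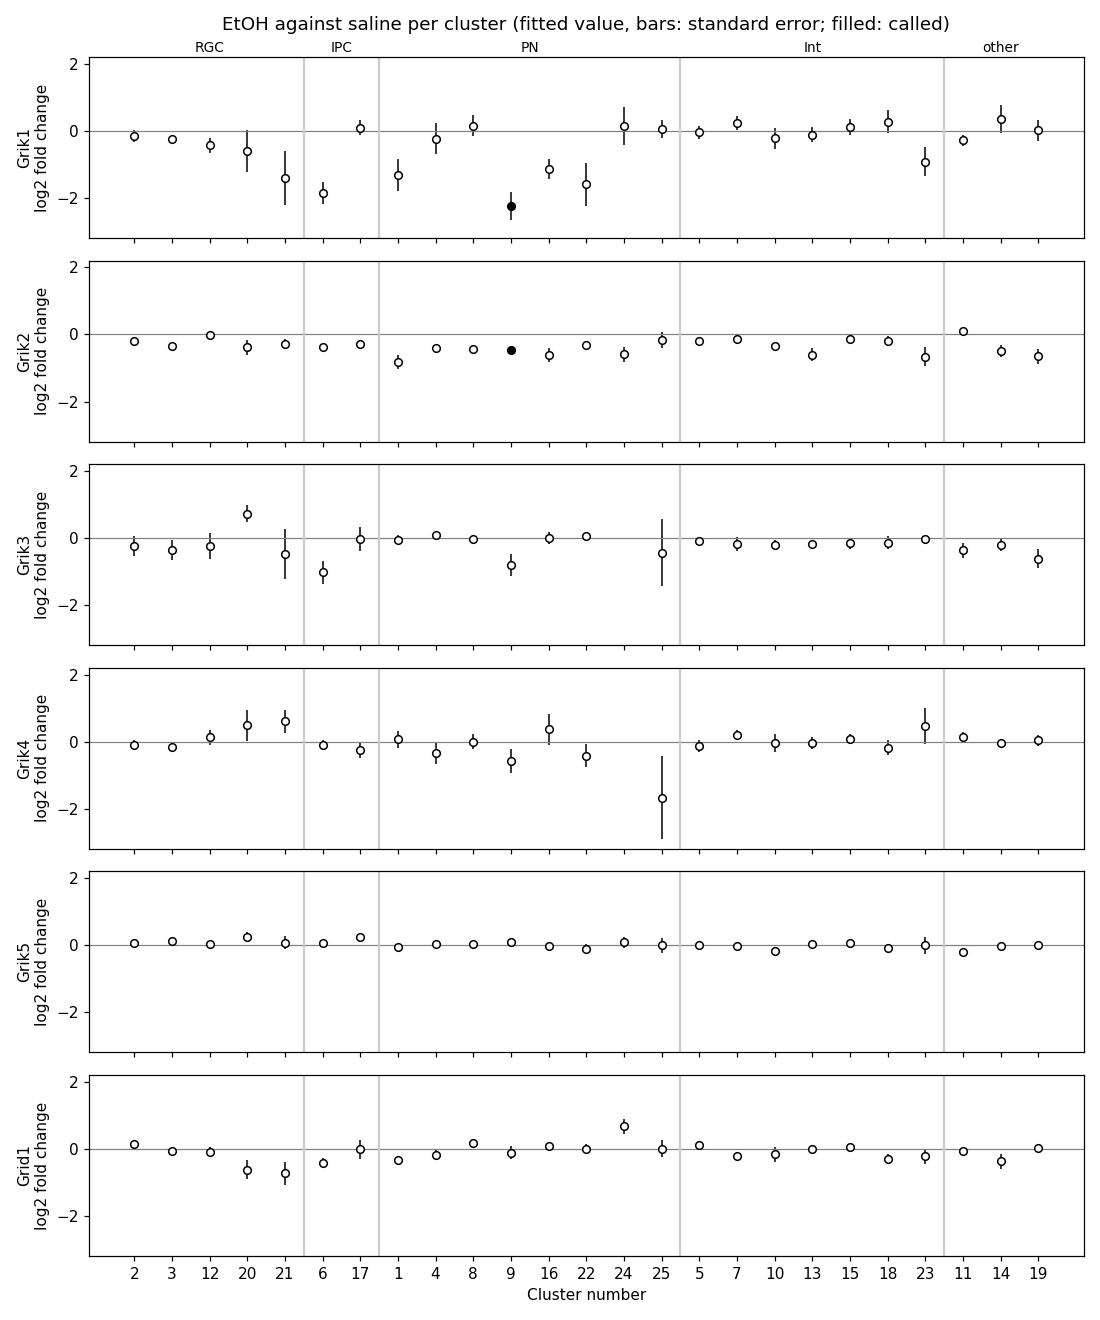
Fitted log2 fold change of EtOH against saline (vertical axis) for each member in each cluster, with its standard error and filled symbols for called pairs. The Grik2 points lie below 0 in 24 of 25 clusters, the Grik5 points stay close to 0, and the filled symbols are Grik1 and Grik2 in Cluster 9.

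Grik2 in PN, summed over the 8 PN clusters, was at 2001, 2183, 2260, 2676 and 1703 CPM in saline embryos S1-1, S1-2, S2-1, S2-2 and S2-4. In the 6 EtOH embryos the lowest level was 1325 CPM, the median 1556 CPM and the highest 1695 CPM. Every EtOH embryo thus lay below every saline embryo, which 1.79% of the genes tested in PN also showed, with S2-4 only just above the highest EtOH embryo. The log2 fold change was -0.56 ± 0.10 (SE, edgeR's quasi-likelihood test, adjusted p = 0.0234), where 2.36% of the genes tested in PN were called lower.

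The difference had a similar size in both batches. In batch 1 the mean was 2092 CPM in saline (n = 2) and 1416 CPM in EtOH embryos (n = 2), and in batch 2 it was 2213 CPM (n = 3) and 1570 CPM (n = 4). Since PN clusters differ in Grik2 and their proportions differ between embryos, the clusters were also given equal weight, an alternative chosen after seeing the data, which gave a log2 difference of -0.58 (two-sided exact permutation test over the 11 embryos, p = 0.00216, the smallest that the 462 splits allow). With counts summed per dam, 2 against 2, the log2 fold change was -0.57 with an adjusted p of 0.119. The call was thus lost with dam sums. In the limma voom fit, which took dams as random blocks, the log2 fold change was -0.56 (adjusted p = 0.0321), a call. That fit called 7.34% of all class pairs. The edgeR call also depended on the embryos included. Leaving out any one of E2-2, E2-3, S1-1, S1-2 or S2-1 moved the adjusted p to between 0.0509 and 0.0688. The log2 fold changes were then from -0.60 to -0.54, whereas without S2-4 the value was -0.64 (adjusted p = 2.09e-05). Over all genes, 0% of class pairs were called without E2-2, S1-2 or S2-1. The share was 0.00181% without S1-1, 0.208% without E2-3 and 18% without S2-4. The whole list of PN markers, Neurod2, Neurod6 and Tbr1, summed to between 376 and 469 CPM in saline and between 338 and 377 CPM in EtOH PN, with 2 of 3 lower and none at 0. The interneuron markers Gad1, Gad2, Dlx1 and Dlx2 in PN summed to between 48.8 and 121 CPM in saline and between 23.8 and 59.3 CPM in EtOH embryos, with 4 of 4 lower, and the Cajal-Retzius markers to between 164 and 397 CPM and between 134 and 235 CPM, with 3 of 3 lower. The median log2 fold change in PN was -0.09 over the 152 genes spanning 600 kb or more, of which 4.61% were called lower, against 0.16 over the 3123 genes under 10 kb. The part of these markers and of gene length in the Grik2 result was not tested.

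Single PN clusters went the same way. In callosal PN of Cluster 1 the saline levels lay between 1209 and 2658 CPM and the EtOH levels between 711 and 1214 CPM, a log2 fold change of -0.81 ± 0.21 (SE, adjusted p = 0.0641). Rostral subcortical PN of Cluster 4 gave -0.42 ± 0.10 (SE, adjusted p = 0.0588) and PN 1 of Cluster 8 gave -0.44 ± 0.14 (SE, adjusted p = 0.106), neither past the threshold. Without S2-4, Cluster 1 gave -0.94 (adjusted p = 0.00980), Cluster 4 gave -0.50 (adjusted p = 8.17e-05) and caudal subcortical PN of Cluster 16 gave -0.74 (adjusted p = 0.0313), all called, and Cluster 8 was not called (adjusted p = 0.0747). Leaving out S2-4 raised calls over all genes too, to 8.78% of cluster pairs from 0.792%. Over all alternatives the adjusted p reached 0.143 in Cluster 1, 0.313 in Cluster 4 and 0.233 in Cluster 8. Of 19 alternatives, 4, 3 and 1 called Grik2 in these clusters.

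In Cluster 9, Grik2 was at 2927, 3032, 3490, 4392 and 2540 CPM in saline embryos S1-1, S1-2, S2-1, S2-2 and S2-4. EtOH embryos had 2233 CPM as the lowest, 2439 as the median and 2573 CPM as the highest level, and the groups overlapped only through S2-4. The log2 fold change was -0.46 ± 0.10 (SE, adjusted p = 0.0376), where 0.799% of the genes tested in Cluster 9 were called lower. With batch as a block the adjusted p was 0.0599, with counts per dam 0.0990, and without single embryos other than S2-4 it lay between 0.0614 and 0.0940, so the call was lost in each of these. Over all genes, 0.0408% to 0.352% of cluster pairs were called without any embryo other than S2-4. Grik2 in Cluster 9 was fitted lower in 19 of 19 alternatives, with log2 fold changes from -0.55 to -0.36, and 7 of them called it. Of the 148 genes there that span 600 kb or more, as Grik2 does, 5.41% were called lower. Their median log2 fold change was -0.32, and 81.8% were fitted lower. The part of gene length, and of the markers of other cells given below for this cluster, was not tested.

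Outside PN, Grik2 did not pass the threshold. The log2 fold changes were -0.36 ± 0.11 in IPCs (SE, adjusted p = 0.0811), -0.24 ± 0.09 in interneurons (adjusted p = 0.107) and -0.21 ± 0.13 in RGCs (adjusted p = 0.275). Of these classes' clusters, the interneuron precursors of Cluster 3, grouped with the RGCs, came closest, with -0.34 ± 0.09 (SE, adjusted p = 0.0519). Without S2-4, Cluster 3 gave -0.40 (adjusted p = 0.00172) and IPCs gave -0.45 (adjusted p = 0.00192), both called. The IPC Clusters 6 and 17, with -0.48 (adjusted p = 0.00260) and -0.33 (adjusted p = 0.0284), and Cluster 10, with -0.38 (adjusted p = 0.0112), were then called too. In the fits without S2-4, 8.78% of all cluster pairs and 18% of all class pairs were called. Over all alternatives the adjusted p reached 0.186 in Cluster 3, called in 5 of 19, and 0.297 in IPCs, called in 2 of 18. Striatal neurons of Cluster 11, in none of the 4 classes, were the exception in direction with 0.10 ± 0.13 (SE, adjusted p = 0.747). Of 2973 genes tested in all 25 clusters, 10.9% were likewise fitted lower in at least 24 of them. Genes spanning 600 kb or more, as Grik2 does, had median log2 fold changes of -0.28 in IPCs, -0.08 in interneurons and -0.25 in RGCs. Of these long genes 88.1%, 65.1% and 85.5% were fitted lower. The part of gene length in the Grik2 values was not tested.

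Whether PN differed from the other classes was tested within embryos, over 36 pairs of classes for the 6 members. The effect of EtOH on Grik2, as a difference of means of log2(CPM + 1), was -0.50 in PN and -0.16 in interneurons, a difference of -0.34 (two-sided exact permutation test, p = 0.0130, adjusted p = 0.136). None of the 36 differences passed the adjustment, and 9 had an unadjusted p under 0.05, so no member was shown to respond differently between classes.

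**Figure D4:**
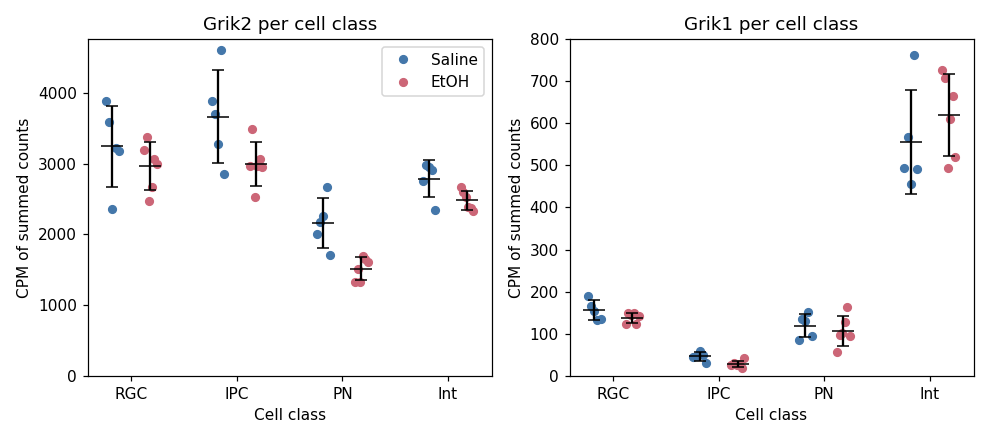
CPM of Grik2 and Grik1 in the 4 cell classes, with 1 point per embryo (blue, saline, n = 5, and red, EtOH, n = 6) and black bars for the mean ± SD. In PN every red point for Grik2 lies below every blue one, while the points overlap in the other classes.

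Shares of nuclei moved with these levels. At 2000 UMIs per nucleus, Grik2 was found in 85.1 ± 6.47% of PN nuclei in saline (SD, n = 5) and in 70.7 ± 2.04% of those from EtOH embryos (SD, n = 6). The shares differed by -14.4 points (two-sided exact permutation test, p = 0.00216, adjusted p = 0.0260 over 24 tests). Median depths before thinning were 8609 UMIs in saline and 6671 UMIs in EtOH PN nuclei, and the unthinned shares were 98.0% and 88.1%. Grik2 was also found less often in interneurons, 88.1 ± 4.06% against 79.9 ± 2.74%, and in RGCs, 93.4 ± 1.38% against 89.6 ± 2.11%, neither past the adjustment (adjusted p = 0.0519 for both, exact permutation tests). With labels exchanged only within batches, both reached an adjusted p of 0.0286. Grik1 in PN and Grik5 in IPCs also stood at an adjusted p of 0.0519 (exact permutation tests over 462 splits). Grik1 was found in 8.72 ± 3.06% of PN nuclei in saline and 4.85 ± 0.872% in EtOH embryos. Grik5 went the other way in IPCs, from 21.2 ± 1.36% to 24.5 ± 1.89%.

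Grik1 gave the other call. In Cluster 9 it was at 36.1, 27.5, 56.0, 26.6 and 12.1 CPM in saline embryos S1-1, S1-2, S2-1, S2-2 and S2-4, which rest on 123, 53, 77, 38 and 27 UMIs. In EtOH embryos the lowest level was 3.15 CPM, the median 5.22 CPM and the highest 11.4 CPM, on 2 to 12 UMIs per embryo. The groups did not overlap, as for 0.908% of the genes tested in this cluster, and the log2 fold change was -2.23 ± 0.42 (SE, adjusted p = 0.0309). The saline embryos alone carried Grik1 past the filter on low counts, which the EtOH embryos would not have done. With batch as a block the adjusted p was 0.0599, and it lay between 0.0589 and 0.0795 without any one of the embryos other than S2-1 and S2-4. In those leave-out fits 0.0408% to 0.352% of all cluster pairs were called. Grik1 in Cluster 9 was fitted lower in 18 of 18 alternatives, with log2 fold changes from -2.48 to -1.98, and 8 of them called it. These do not include the thinned counts, for which Grik1 had no fit in this cluster. Its call was therefore not tested at a common depth per nucleus. The batch means were 31.8 and 4.35 CPM in batch 1 and 31.6 and 7.07 CPM in batch 2, saline first.

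Cluster 9 had the lowest Grik1 of all clusters over both treatments, whereas in saline alone Cluster 16 had 31.1 CPM and Cluster 9 had 31.7 CPM. Markers of other cells were lower beside it. Set against the same embryo's interneurons, Grik1 in Cluster 9 stood at a median of 4.87% of the interneuron level in saline and 0.880% in EtOH embryos. The interneuron marker Gad2 stood at 5.62% and 1.97%, Gad1 at 4.16% and 2.45%, Dlx1 at 6.51% and 3.33% and Dlx2 at 6.58% and 2.40%. In mean CPM Dlx2 was not lower, with 1.20 in saline and 1.28 in EtOH embryos. The summed interneuron markers Gad1, Gad2, Dlx1 and Dlx2 lay between 43.2 and 115 CPM in saline and between 6.29 and 47.8 CPM in EtOH embryos, with 3 of 4 lower and none at 0 over the cluster. The striatal markers Rarb and Ebf1 summed to 158 to 261 CPM against 106 to 189 CPM, with 2 of 2 lower, and the Cajal-Retzius markers Reln, Trp73 and Ebf3 to 238 to 423 CPM against 144 to 217 CPM, with 3 of 3 lower. Of the genes spanning 300 to 600 kb, as Grik1 does, 7.14% were called lower in Cluster 9. The part of these markers and of gene length in the Grik1 result was not tested.

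**Figure D5:**
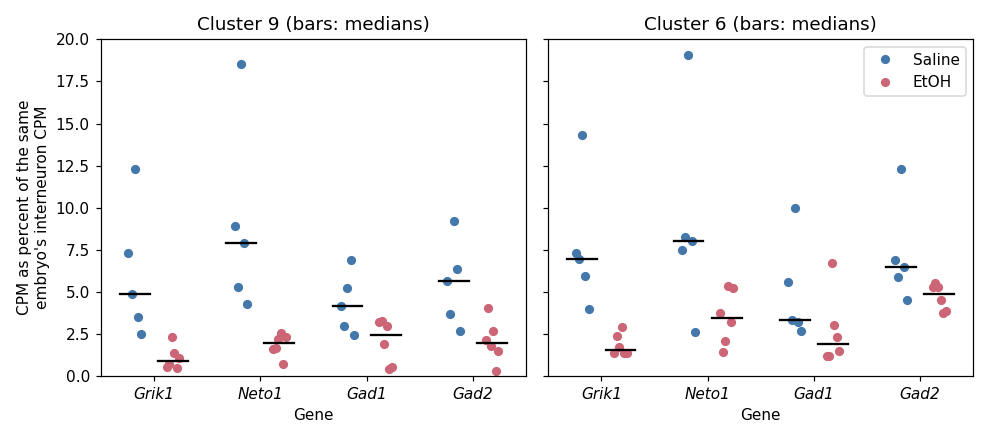
Level of Grik1, Neto1, Gad1 and Gad2 in Clusters 9 and 6 as a percent of the same embryo's interneuron level, with 1 point per embryo (blue, saline, and red, EtOH) and bars for medians. In both clusters the EtOH medians lie below the saline medians for all 4 genes, and the points of Grik1 do not overlap.

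Grik1 did not pass the threshold in IPCs or their clusters. In non-mitotic IPCs of Cluster 6, Grik1 lay between 19.7 and 65.3 CPM in saline and between 7.09 and 17.7 CPM in EtOH embryos, without overlap, as for 0.501% of the genes tested there (log2 fold change -1.86 ± 0.33, SE, adjusted p = 0.0596). In mitotic IPCs of Cluster 17 it was at 59.4 ± 12.5 CPM in the 5 saline and 63.8 ± 24.5 CPM in the 6 EtOH embryos (SD for both), which overlapped (log2 fold change 0.09 ± 0.22, SE, adjusted p = 0.888). Over all IPCs the log2 fold change was -0.76 ± 0.19 (SE, adjusted p = 0.0536), where 1.52% of the genes tested were called. Without S2-4 the values were -2.04 in Cluster 6 (adjusted p = 1.48e-05) and -0.88 over IPCs (adjusted p = 0.000637), both called, against 8.78% of all cluster and 18% of all class pairs. Over IPCs Grik1 was called in 4 of 18 alternatives, the others being DESeq2 (-0.78, adjusted p = 0.00890), no filter on low counts (-0.81, adjusted p = 0.0419) and thinning to 2000 UMIs per nucleus, which moved the log2 fold change to -1.54 (adjusted p = 0.0370). Cluster 6 was called in 5 of 19 alternatives, with log2 fold changes from -2.10 to -1.66 over all of them. The share of IPC nuclei with Grik1 at 2000 UMIs was lower, going from 9.14 ± 2.68% in saline (SD, n = 5) to 3.05 ± 1.11% in EtOH embryos (SD, n = 6, two-sided exact permutation test, p = 0.00216, adjusted p = 0.0260), and the unthinned shares were 23.3% and 8.02%. Median depths before thinning were 6770 and 5011 UMIs. In Cluster 6 Grik1 stood at a median of 6.92% of the interneuron level in saline and 1.56% in EtOH embryos. Neto1 stood at 8.05% and 3.47% there, Gad1 at 3.33% and 1.89%, Gad2 at 6.45% and 4.89%, Dlx1 at 9.63% and 8.52% and Dlx2 at 14.0% and 11.5%. All of them were lower after EtOH in these medians. In mean CPM, Dlx2 was higher, with 2.73 in saline and 2.88 in EtOH embryos, and Dlx1 went from 7.91 to 7.68. The part of these genes in the Grik1 result was not tested.

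Where Grik1 was high it did not pass the threshold. In interneurons it was at 554 ± 123 CPM in saline (SD, n = 5) and 620 ± 96.6 CPM in EtOH embryos (SD, n = 6, log2 fold change 0.09 ± 0.14, SE, adjusted p = 0.712). Over PN it was at 119 ± 27.9 and 107 ± 35.5 CPM (log2 fold change -0.20 ± 0.24, SE, adjusted p = 0.604). With the PN clusters given equal weight, an alternative chosen after seeing the data, the log2 difference was -1.27 (two-sided exact permutation test, p = 0.00649, and p = 0.0143 with labels exchanged within batches), a p that is not adjusted over genes. This alternative changed the weighting, the scale and the test together, and the part of each was not tested. Without S2-4, Grik1 was called lower in PN Clusters 1 (-1.52, adjusted p = 0.0362) and 16 (-1.32, adjusted p = 0.00245), in Cluster 3 (-0.34, adjusted p = 0.0177) and in RGCs (-0.32, adjusted p = 0.0382), none of which was called with it. In those fits 8.78% of all cluster pairs and 18% of all class pairs were called.

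The 4 other members had 0 calls in the cluster and class fits, with the smallest adjusted p of a cluster at 0.0697 for Grid1, 0.116 for Grik3, 0.195 for Grik5 and 0.389 for Grik4. At an unadjusted p under 0.05 stood 6 clusters for Grid1, 4 for Grik3, 2 for Grik5 and 0 for Grik4, and DESeq2 called 1 of their 98 cluster pairs and 0 of their 16 class pairs. Together 12 of the 98 pairs stood at that unadjusted level, against 17.4% of pairs over all genes. DESeq2 called 2.61% of all cluster pairs and 8.87% of all class pairs. For Grid1 the nearest was callosal PN of Cluster 1, with 111 ± 13.2 CPM in saline (SD, n = 5) and 91.6 ± 10.8 CPM in EtOH embryos (SD, n = 6, log2 fold change -0.34 ± 0.10, SE). Without S2-4 it was -0.42 there (adjusted p = 0.00105) and -0.53 in Cluster 6 (adjusted p = 0.00160), both called, against 8.78% of all cluster pairs. Each was called in 1 of 11 fits with an embryo left out, and over all alternatives the adjusted p reached 0.423 and 0.204. For Grik3 the nearest was Cluster 6, with 29.6 ± 15.3 CPM in saline and 15.6 ± 4.30 CPM in EtOH embryos, which overlapped (log2 fold change -1.03 ± 0.33, SE, adjusted p = 0.116). It was called in 3 of 18 alternatives, DESeq2, counts per dam and without S2-4 (-1.18, adjusted p = 0.0264). Without S2-4, Grik3 was called in Cluster 9 as well (-0.99, adjusted p = 0.0164). Grik3 in interneurons was at 605 ± 16.7 and 584 ± 82.0 CPM. Grik5 in PN was at 126 ± 8.55 and 130 ± 5.04 CPM, and its cluster values lay between -0.19 and 0.25 on the log2 scale. In 2 further pairs of a member and a cluster the groups did not overlap, with EtOH embryos higher and no call. Grid1 in PN 2 of Cluster 24 lay between 176 and 439 CPM in 5 saline embryos and between 446 and 690 CPM in 5 EtOH embryos (log2 fold change 0.66 ± 0.23, SE, adjusted p = 0.344), as for 1.19% of the genes tested there. Grik5 in Cluster 3 lay between 110 and 138.5 CPM in the 5 saline and between 139.3 and 151 CPM in the 6 EtOH embryos (log2 fold change 0.13 ± 0.07, SE, adjusted p = 0.258), as for 1.52% of the genes tested there.

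Among the proteins that work with these receptors, Neto1 and Neto2 are auxiliary subunits that change the gating of kainate receptors. Neto1 was highest in migrating interneurons of Cluster 5 with 380 ± 109 CPM (SD, n = 11), which was next to Cluster 25 in Grik1. Neto2 was highest in callosal PN of Cluster 22 with 744 ± 126 CPM and in rostral subcortical PN of Cluster 4 with 684 ± 72.7 CPM (SD, n = 11 for both), the 2 PN clusters with the highest Grik3. Neto1 was called lower in Cluster 9, from 12.8 ± 5.11 CPM in saline (SD, n = 5) to 3.59 ± 1.12 CPM in EtOH embryos (SD, n = 6, log2 fold change -1.85 ± 0.36, SE, adjusted p = 0.0242), where it had the 24th level of 25. It passed the filter on low counts only through saline embryos, at 7.65 to 18.9 CPM, against 1.57 to 4.94 CPM in EtOH embryos. Neto1 stood at a median of 7.92% of the interneuron level in saline and 1.93% in EtOH embryos. Gad2 stood at 5.62% and 1.97%, Gad1 at 4.16% and 2.45%, Dlx1 at 6.51% and 3.33% and Dlx2 at 6.58% and 2.40%. Mean Dlx2 was 1.20 CPM in saline and 1.28 CPM in EtOH embryos. At this level Neto1 was not told apart from free RNA. The part of the interneuron markers in the Neto1 result was not tested. Neto2 had 0 calls with edgeR, with 8 of 25 clusters and 2 of 4 classes at an unadjusted p under 0.05, and 0 with DESeq2. Over all genes, 17.4% of cluster pairs stood at that unadjusted level. No such share is given for class pairs, so the class count is not set against a background.

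Of 41 partner genes in lists of auxiliary subunits, delta receptor partners, scaffolds, editing enzymes, glutamate transporters and other ionotropic receptors, 35 could be tested in a cluster, and 10 of 681 gene and cluster pairs were called, 2 higher and 8 lower, against 0.792% of all pairs. In the class fits 7 of 137 pairs were called, 2 higher and 5 lower, against 4.32% of all pairs. These 17 calls became 2 to 93 when 1 embryo was left out. The 93 were without S2-4, where 8.78% of all cluster and 18% of all class pairs were called. With batch as a replicate block, 10 cluster pairs and 3 class pairs of the partners were called. Of the partners of delta receptors, Nrxn3 fell in PN (log2 fold change -1.02 ± 0.29, SE, adjusted p = 0.0499). The editing enzyme genes Adar, Adarb1 and Adarb2 had 0 calls with edgeR in 74 cluster pairs, 16 of them at an unadjusted p under 0.05, and 0 in 12 class pairs, 4 of them at that level. DESeq2 called 5 of the cluster pairs and 3 of the class pairs. Over all genes, 17.4% of cluster pairs stood at that unadjusted level with edgeR, and no such share is given here for class pairs. DESeq2 called 2.61% of all cluster pairs and 8.87% of all class pairs.

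The scaffold gene Dlg1, whose product anchors receptors at the membrane, fell in Cluster 3 (-0.34 ± 0.07, SE, adjusted p = 0.0319) and Cluster 5 (-0.38 ± 0.06, adjusted p = 0.0122). Slc17a6, the vesicular glutamate transporter VGLUT2, fell in PN (-0.40 ± 0.10, adjusted p = 0.0345) and in Cluster 5 (-0.85 ± 0.13, adjusted p = 0.0105), where interneurons had 48.5 ± 4.23 CPM in saline (SD, n = 5). Over both treatments Cluster 5 had 37.0 CPM of Slc17a6, against 541 CPM in Cluster 9, and this level was not told apart from free RNA. Slc1a3, a glial glutamate transporter, fell in Cluster 9 (-1.005 ± 0.22, adjusted p = 0.0322). Of the AMPA receptor genes, Gria4 fell in RGC 1 of Cluster 2 (-0.51 ± 0.09, adjusted p = 0.0389), in RGCs (-0.58 ± 0.11, adjusted p = 0.0402) and in PN (-0.37 ± 0.09, adjusted p = 0.0318). Of the NMDA receptor genes, the obligatory subunit gene Grin1 rose in Cluster 1 (0.60 ± 0.14, adjusted p = 0.0320), Cluster 5 (0.74 ± 0.10, adjusted p = 0.00777) and interneurons (0.43 ± 0.11, adjusted p = 0.0401). Grin2d rose in PN (0.62 ± 0.18, adjusted p = 0.0458), from 3.41 to 5.39 CPM, and Grin2b fell in Cluster 9 (-0.95 ± 0.21, adjusted p = 0.0463). The PN sums in which Nrxn3, Slc17a6, Gria4 and Grin2d were called are those in which 4 of 4 interneuron markers and 3 of 3 Cajal-Retzius markers were lower after EtOH, and in Cluster 9, where Slc1a3 and Grin2b were called, 3 of 4 and 3 of 3 were lower. The part of these markers in the partner calls was not tested. The share of all genes called was 3.26% in Cluster 1 and 2.01% in Cluster 5.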

How the data were processed

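Nuclei of 11 embryonic mouse cortices were profiled by snRNAseq with 10x 3′ v3.1 chemistry. Cell Ranger with its default mm10 reference (both also in the submitters' processing notes) was run by the authors, who then filtered nuclei and genes with Seurat, assigned clusters, and deposited raw UMI counts per gene and nucleus in 1 table for each embryo and cluster. The values were whole numbers without normalization. The strand used for counting is not given in the sources used here, and doublets were not called. A 12th sample, saline embryo S2-3, was not used here. Duplicated libraries were looked for among littermates by a chi-square per gene, which lay above sampling noise. It was between 48.7 and 89.7 for the saline embryos of dam S2, highest for S2-1 against S2-4. For littermates of the other dams it was between 4.33 and 12.3. Saline embryos of dam S2 thus differed more from each other than other littermates did.

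Counts were summed per embryo and cluster, or per class, and scaled to CPM with Python 3.11.15, pandas 2.3.3 and NumPy 2.4.6, and figures were drawn in matplotlib 3.10.9. Embryos with fewer than 10 nuclei in a cluster were left out of it (9 pairs). EtOH against saline was tested with edgeR 4.0.16 in R 4.3.3 (robust quasi-likelihood, TMM, filterByExpr, no covariates), with the SE taken from the fold change and its F statistic. DESeq2 1.42.0, limma 3.58.1 (voom, dams as random blocks), other scalings, no filter, dam sums, thinning and each embryo left out were alternatives, and the fitting code was tested on simulated counts. Shares and class differences were compared by two-sided exact permutation tests over 462 splits, with a pseudocount of 1 CPM. The batch given in the labels, which joins dam S1 with E1 and dam S2 with E2, served as the replicate block. The batch difference in saline and in EtOH embryos correlated at -0.04 to 0.06 over genes in the 4 classes.

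The members, the partner and marker lists and the tests were chosen with earlier results of these data known. All members were named throughout, with partner genes called in the edgeR fits (2 of these results are not reported here), Neto1 and Neto2, and the 3 genes most alike to each member. Positions and sequences are from GENCODE M21 on GRCm38, the build of mm10.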

Additional observations from a re-analysis of the deposited data

Results flagged for a closer look

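Among the 48 groups of a member, a class and a treatment, 2 held an embryo that stood apart by Dixon's test at 95%, and chance flags about 1 group in 20. Saline embryo S2-1 had 55.4 CPM of Grik3 in IPCs, where the median of the saline embryos was 24.2 CPM. The same embryo had 84.1 CPM of Grik4 in RGCs, where the saline median was 42.8 CPM. Neither gene was called in these classes.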

How the results depend on the processing

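Of 148 member and cluster pairs, the 2 calls became 8 with DESeq2 (of all pairs, 2.61% were called), 14 without a filter on low counts (2.07%), 0 with batch as a replicate block (0.419%), 5 with counts summed per dam (0.72%) and 6 with voom and the dam as a random block (2.97%), and 0 to 17 with each embryo left out, 17 without S2-4 (8.78%) and 0 or 1 without any other (0.0408% to 0.352%). The single class call became 3 with DESeq2 (8.87%), 2 without a filter (2.88%), 2 after thinning (1.19%) and 0 with counts per dam (1.5%). With each embryo left out it became 0 to 4, 4 without S2-4 (18%) and 0 or 1 without any other (0% to 2.2%). The batch block kept it at 1 call (Grik2 in PN, log2 fold change -0.56, adjusted p = 0.0282, edgeR). The 17 partner calls became 58 with DESeq2, 65 without a filter, 37 per dam and 34 with voom, and 2 to 93 with each embryo left out, 93 without S2-4. With batch as a replicate block, 10 of 681 partner and cluster pairs were called (0.419% of all pairs) and 3 of 137 partner and class pairs (2.82%). After thinning the counts were 11 of 540 (0.622%) and 4 of 111 (1.19%). The 2 share calls became 13 without thinning and 4 with labels exchanged within batches as a replicate block, and 0 to 4 with each embryo left out, where fewer splits remain. The differences between classes stayed at 0 calls in 14 alternatives, and Grik2 was lower in all fitted clusters but 0 to 2 in 19 alternatives. The cause of these changes was not tested. EtOH embryos were shallower, which limits low levels such as Grik1 in Cluster 9.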
